A study of Oryza sativa Japonica Group with 12 samples.

Results

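The difference between a young and an old rice leaf was compared between plants that over-express the microRNA miR156 (OE) and wild-type plants (WT), over all 12 arrays of the series. The plants were Oryza sativa, Japonica group, and transcripts were read on an Affymetrix rice array, which gives 1 signal for each set of short probes. Within each plant, the log2 signal of leaf 3 (L3, old) was subtracted from that of leaf 6 (L6, young), and this value is called the leaf difference. The mean leaf difference of the 3 WT plants was then subtracted from that of the 3 OE plants, and this value is called the interaction. Each leaf was matched to the other leaf of its plant by the repeat number within the genotype. Of 57381 probe sets in the table, 57194 are no array controls, and 34316 of these were bright enough to be tested.

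The 4 groups held 3 arrays each: L6 of OE plants, L3 of OE plants, L6 of WT plants and L3 of WT plants. The OE plants came from the independent transgenic lines Md15, Md43 and Mh9, which are OE replicates 1, 2 and 3. They had been selected on 50 mM hygromycin, and extra miR156 had been checked on RNA gel blots. Which construct and promoter drive miR156 is not stated in the labels. WT plants were 3 plants without the transgene. All were grown in hydroponics and sampled at 45 days, with the leaves of the main tiller counted in order of appearance. The young leaf is also the higher one, so age and position cannot be told apart in this design. No transgenic line without extra miR156 was sampled, so effects of transformation and of miR156 cannot be told apart either. In whole leaves, fewer cells of a type and less RNA per cell also cannot be told apart.

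MiR156 is a small RNA that is abundant in juvenile plants and declines as shoots mature. It pairs with a site in the transcripts of many SPL genes, which encode plant transcription factors, and lowers their output. SPL proteins act in the change from juvenile to adult leaves, in branching and in panicle form, so leaves of successive positions are a usual place to follow this pathway. In rice, SPL14 is known for its effect on plant architecture.

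No probe set passed the test of the interaction. In a limma fit with the plant as a block, 0 of 34316 probe sets had a Benjamini-Hochberg adjusted p under 0.05 (0% called, higher or lower), and the smallest adjusted p was 0.23. Every gene described below for its interaction therefore did not pass, and its values are given as a description. At an unadjusted p under 0.05 there were 596 probe sets (1.74% of those tested), 214 with a higher value in OE (0.624%) and 382 with a lower one (1.11%). This unadjusted count moved with the plants used and was 3346 when WT replicate 1 was left out. In 1936 probe sets (5.64%) the 3 leaf differences of OE plants did not overlap the 3 of WT plants, with OE above WT in 777 (2.26%) and below in 1159 (3.38%). Leaving the plant out as a block called 3 probe sets, all lower in OE, and 1 when the plant was a random block. Those 3 are described next to their values below.

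The precision of the interaction was set by the 6 plants. The median standard error was 0.167, and the median half-width of the 95% interval was 0.403 on the log2 scale. Folds in this paragraph are on the scale of log2 of signal plus 16, which understates folds of dim probe sets. For 29435 probe sets (85.8%) the interval lay within a 2-fold change in either direction, so for these a larger interaction on that scale lay outside the interval. For dim probe sets this does not exclude a larger fold in signal. The interval lay wholly beyond 2-fold for 9 probe sets, without adjustment for the number tested. An interaction of at least 2-fold was measured for 263 probe sets (0.766%).

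Both genotypes showed a broad leaf difference of the same kind. Between L6 and L3, 11197 probe sets passed in OE plants (32.6% called, 4816 or 14% higher and 6381 or 18.6% lower in L6), and 13363 passed in WT plants (38.9% called, 6535 or 19% higher and 6828 or 19.9% lower in L6). The lists shared 9566 probe sets, which is 85.4% of those called in OE and 71.6% of those called in WT. Of the shared probe sets 9565 had the same direction and 1 the opposite one. The mean leaf differences of OE and WT plants, which share no array, had a Pearson correlation of 0.966 across probe sets, which are not independent. Among probe sets called in WT, 71% had a smaller leaf difference in OE and 99.5% the same sign. Among those called in OE, 49% had a smaller leaf difference in WT, and 57.7% of all probe sets tested had the smaller value in OE. The least-squares slope of OE on WT was 0.856 and that of WT on OE was 1.09. Choosing probe sets by their call in a genotype favours large values in that genotype, so the shares are read beside the share over all probe sets.

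**Figure D1:**
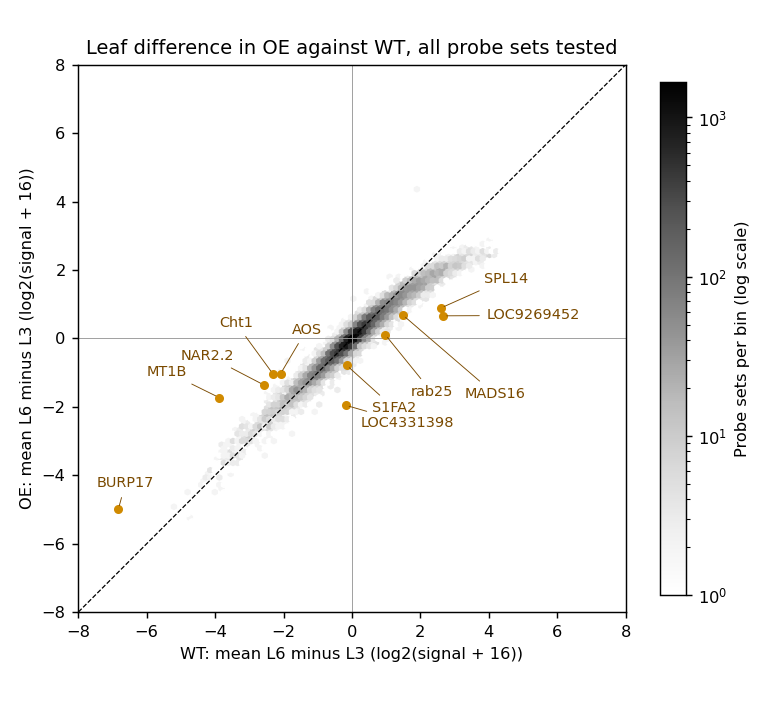
Mean leaf difference (L6 minus L3, log2 of signal plus 16) in the 3 OE plants on the vertical axis against that in the 3 WT plants on the horizontal axis, with shading for the number of probe sets per bin on a log scale and the dashed line marking equality. The cloud of 34316 probe sets follows the line with a correlation of 0.966, and genes named in the text are marked, LOC4331398 and S1FA2 at about no WT leaf difference and MT1B, NAR2.2, Cht1, AOS and BURP17 above the line on the left.

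The only probe set called in both genotypes with opposite directions has no gene assigned in the annotation used here. Its signal was 898, 744 and 1273 in L6 of OE plants and 1922, 2139 and 1565 in L3 of OE plants, against 1108, 1180 and 1127 in L6 of WT plants and 813, 501 and 694 in L3 of WT plants. L6 lay below L3 in every OE plant and above L3 in every WT plant. The leaf difference was -0.96 in OE (limma adjusted p = 0.031) and 0.78 in WT (adjusted p = 0.0483). The interaction was -1.74 (SE 0.35) with an unadjusted p of 0.00215 and did not pass (adjusted p = 1).

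How far the leaves of a plant stood apart varied more among the WT plants than between the genotype means. The SD of the leaf difference over probe sets was 0.649, 0.783 and 1.00 in OE plants 1, 2 and 3, and 0.518, 1.13 and 1.09 in WT plants 1, 2 and 3. WT replicate 1 was the lowest of the 6 plants and the other WT plants the highest, with all OE plants between them. The means were 0.811 ± 0.178 in OE and 0.91 ± 0.341 in WT (SD, n = 3 each), a difference of -0.0993. An exact permutation of the 6 plants gave a two-sided p of 0.8, where 0.1 is the smallest p this design allows. Without WT replicate 1 the difference was -0.296 (p = 0.2 by exact permutation), and without WT replicate 2 it was 0.00876. Leaves differed at least 2-fold for 9.95%, 13.4% and 17% of probe sets in OE plants 1 to 3 and for 4.9%, 20.7% and 19.8% in WT plants 1 to 3. The leaf differences of WT replicate 1 correlated at 0.696 to 0.794 with those of the other plants, which correlated at 0.815 to 0.964 among themselves.

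**Figure D2:**
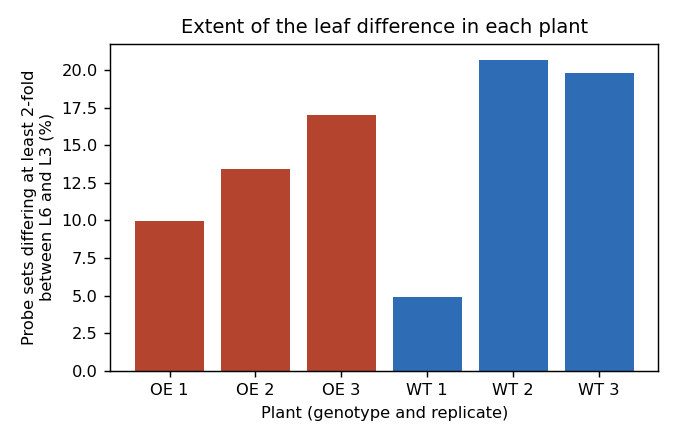
Share of the probe sets tested, in percent, that differed at least 2-fold between L6 and L3 of each plant, with OE plants left of WT plants. WT replicate 1 is lowest at 4.9%, the OE plants lie between 9.95% and 17%, and WT replicates 2 and 3 are highest at 20.7% and 19.8%.

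The spread between plants lay mainly in the old leaf. The mean variance over probe sets was 0.0469 in L6 and 0.115 in L3 of OE plants, against 0.0425 in L6 and 0.169 in L3 of WT plants. A score that is 0 at the mean L3 and 1 at the mean L6 of the other genotype was 0.254, 0.211 and -0.223 for L3 of OE plants 1, 2 and 3, and 0.382, -0.286 and -0.266 for L3 of WT plants 1, 2 and 3. All L6 arrays scored between 0.878 and 1.11. The L3 leaves of OE replicates 1 and 2 and of WT replicate 1 thus lay nearer to young leaves than the other L3 leaves did. HOS66 (LOC4331449), a KNOX class homeobox gene, read the same way. Its signal was 652, 726 and 640 in L6 and 343, 303 and 15.1 in L3 of OE plants, against 606, 1052 and 1138 in L6 and 466, 13.8 and 11 in L3 of WT plants.

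Lists of KNOX and MADS-box genes, families with members active in the shoot apex and the inflorescence, were read beside the leaf values. Of 7 named KNOX genes 4 were bright enough to test, and their summed signal was 4443 to 5557 in L6 and 6975 to 7234 in L3 of OE plants, against 5011 to 5697 in L6 and 6712 to 7309 in L3 of WT plants. The KNOX sum was lower in L6 than in L3 in both genotypes, while HOS66 was higher in L6 than in L3 of every plant. HOS66 read at most 1138, so most of the sum came from the other KNOX genes. Whether any sample held shoot apex tissue was not tested. Of 31 named MADS-box genes 11 were tested, with sums of 4023 to 4739 in L6 and 4445 to 5125 in L3 of OE plants, against 5241 to 5650 in L6 and 4991 to 5174 in L3 of WT plants. None of the tested genes of either list was at 0 in any array. The other KNOX genes tested, HOS58, HOS13 and HOS59, had interactions of 0.05, -0.04 and -0.05. The part of these genes, and of the spread of L3, in the interaction was not tested. The 3' to 5' log2 ratio of the Dap control RNA was 5.35 for L6 of OE replicate 1 and 3.2 to 3.7 for the other arrays. Array medians lay between 50.8 and 56.5.

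SPL genes, the known targets of miR156, were the first set examined. The annotation names 11 of them, all 11 were tested, and 14 of their 15 probe sets passed the filter on dim signals. SPL14 (LOC4345998) had a signal of 58.3, 67.5 and 69.5 in L6 and 37.7, 34.4 and 14.9 in L3 of OE plants, against 404, 364 and 86.0 in L6 and 62.5, 17.3 and 12.2 in L3 of WT plants. Every L6 of WT was above every L6 of OE, while the L3 values of both genotypes overlapped. Its leaf differences were 0.47, 0.73 and 1.47 in OE plants and 2.42, 3.51 and 1.85 in WT plants, without overlap. The means were 0.89 in OE (limma adjusted p = 0.0785) and 2.60 in WT (adjusted p = 0.00445). The interaction was -1.71 (SE 0.461, 95% interval -2.82 to -0.59), with an unadjusted p of 0.00905, and it did not pass (adjusted p = 1).

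The other SPL genes with a miR156 site had smaller interactions. SPL12 (LOC4341986) read 337, 322 and 348 in L6 and 246, 179 and 147 in L3 of OE plants, against 585, 606 and 562 in L6 and 285, 210 and 224 in L3 of WT plants. It was higher in L6 in both genotypes (OE leaf difference 0.80, adjusted p = 0.0172; WT 1.24, adjusted p = 0.00489, limma), and its interaction was -0.45 (SE 0.231). SPL16 (LOC4346133), known in rice for an effect on grain shape, read 67.8, 61.1 and 53.9 in L6 and 40, 37.4 and 35.8 in L3 of OE plants, against 85.2, 90.7 and 77.7 in L6 and 54.4, 26.4 and 32.9 in L3 of WT plants. All L6 values of OE lay below all L6 values of WT, the L3 values overlapped, and the interaction was -0.42 (SE 0.203). SPL7 (LOC4336597) had an interaction of -0.50 (SE 0.315) that rested on 1 plant. Its L6 signal was 68, 167 and 184 in OE plants and 215, 232 and 182 in WT plants, and without OE replicate 1 its interaction was -0.14.

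SPL4 (LOC4328461) was read by 3 probe sets, which differ among themselves. The brightest read 206, 201 and 226 in L6 and 183, 169 and 206 in L3 of OE plants, against 361, 342 and 390 in L6 and 241, 282 and 264 in L3 of WT plants. OE was below WT in both leaves with no overlap, and the interaction was -0.28 (SE 0.142). The other SPL4 probe sets gave -0.20 (SE 0.145) and 0.03, so the gene's leaf difference was not read in the same way by all 3. SPL2 (LOC4327245) had an interaction of -0.03 with a 95% interval of -1.04 to 0.97. Its leaf differences overlapped, at 0.38, 0.75 and -0.36 in OE plants and -0.47, 0.55 and 0.79 in WT plants.

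All 6 SPL genes with a miR156 site had a negative interaction on their brightest probe set, and 0 passed. In 2 of the 6 the OE and WT plants did not overlap, and 1 had an unadjusted p under 0.05. Over all genes read the same way, 2.72% were lower in OE without overlap and 0.96% were lower at an unadjusted p under 0.05. Their median was -0.432, against -0.0096 over the 15517 genes tested by their brightest probe set, of which 7425 were higher and 8092 lower. The median leaf difference of these 6 genes was 0.404, 0.629 and 0.278 in OE plants and 0.538, 0.942 and 0.864 in WT plants, so the genotypes overlapped. For the 5 SPL genes that lack a site the median interaction was -0.00214, and they lay between -0.0841 and 0.132. Among these, SPL1 (LOC4325162) was lower in L6 in both genotypes, by leaf differences of -1.35 in OE (limma adjusted p = 0.0153) and -1.47 in WT (adjusted p = 0.0107). SPL8 (LOC4337258) had leaf differences of 0.80 in OE and 0.88 in WT. SPL6, SPL9 and SPL15 had mean leaf differences between -0.17 and 0.33 in both genotypes by every probe set.

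**Figure D3:**
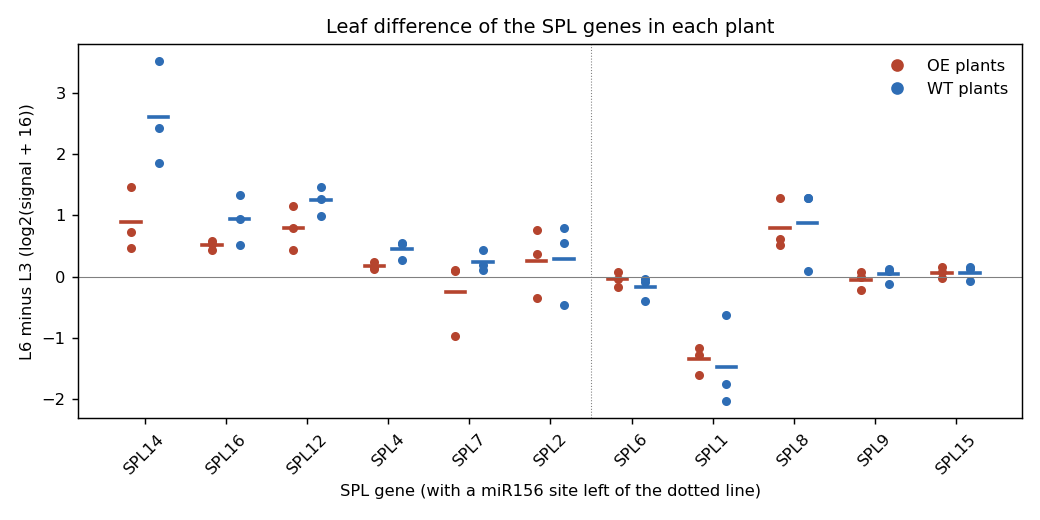
Leaf difference (L6 minus L3, log2 of signal plus 16) of each SPL gene by its brightest probe set, with OE plants left of WT plants for each gene, a point per plant, a bar for the mean of 3, and genes with a miR156 site left of the dotted line. SPL14 stands apart with OE points between 0.47 and 1.47 and WT points between 1.85 and 3.51, while the points of the genes right of the line overlap.

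LOC4331398, a gene known here only by its number, had the smallest p of all, but its WT signal was too low for a leaf difference to be read there. Its signal was 260, 211 and 325 in L6 and 1000, 982 and 1212 in L3 of OE plants, against 9.72, 10.3 and 12.6 in L6 and 13.3, 14.8 and 15.3 in L3 of WT plants. All OE leaves were far above all WT leaves, which lay below the 16 that was added before taking logs, and among OE leaves L3 was above L6 in every plant. The leaf difference was -1.96 in OE (limma adjusted p = 0.00053). The gene passed the filter on dim signals only through its OE levels, and its WT leaf difference of -0.18 is set by the added 16. The fitted interaction of -1.77 (adjusted p = 0.23) therefore reads little more than the OE leaf difference. A second probe set, of a kind that may also read similar genes, gave -1.75 (adjusted p = 0.291). Both were called without the plant as a block (adjusted p = 0.0345 and 0.0275).

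A probe set to which the annotation assigns no gene was the third called without the block. It read 32.1, 49.3 and 30.9 in L6 and 17.1, 19.8 and 20.1 in L3 of OE plants, against 182, 176 and 202 in L6 and 16.8, 19.7 and 10.9 in L3 of WT plants. L3 was dim in both genotypes, and L6 of WT was above L6 of OE in every plant. The interaction was -2.08 (SE 0.193, limma adjusted p = 0.291), called without the block (adjusted p = 0.0184) and with the plant as a random block (adjusted p = 0.0271).

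The gene rab25 (LOC4326935), named for its response to abscisic acid, was near its L3 level in L6 of OE plants and above it in L6 of WT plants. It read 39.7, 42.0 and 37.5 in L6 and 36.9, 37.7 and 32.4 in L3 of OE plants, against 88.1, 78.3 and 75.7 in L6 and 35.5, 36.0 and 28.6 in L3 of WT plants. Only the L6 of WT stood apart from the other leaves. The leaf difference was 0.11 in OE (limma adjusted p = 0.197) and 0.97 in WT (adjusted p = 0.000586). The interaction was -0.86 (SE 0.0848, 95% interval -1.07 to -0.656), with an unadjusted p of 3.66e-05 and an adjusted p of 0.314. With 64 added in place of 16 the interaction was -0.51. LOC9269452 had the same order of groups. It read 122, 282 and 116 in L6 and 88.7, 125 and 76.4 in L3 of OE plants, against 471, 704 and 751 in L6 and 80.2, 90.9 and 86.3 in L3 of WT plants, with an interaction of -2.01 (SE 0.243, adjusted p = 0.725).

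Several genes that were brighter in the old leaf had a smaller leaf difference in OE plants. NAR2.2 (LOC4336175) is related to proteins that nitrate transporters need as partners. It read 48.3, 50.8 and 46.1 in L6 and 123, 160 and 169 in L3 of OE plants, against 54.1, 53 and 56.9 in L6 and 386, 399 and 431 in L3 of WT plants. L3 of WT was above L3 of OE in every plant, and L6 of OE lay slightly below L6 of WT, also without overlap. The leaf difference was -1.36 in OE (limma adjusted p = 0.00151) and -2.58 in WT (adjusted p = 0.00036), and the interaction was 1.22 (SE 0.156, adjusted p = 0.869). MT1B (LOC4332487), a metallothionein, which binds metal ions, had 33.1, 37.3 and 27.1 in L6 and 107, 137 and 203 in L3 of OE plants, against 34.1, 34.8 and 38.4 in L6 and 694, 934 and 647 in L3 of WT plants. L6 overlapped between genotypes and L3 did not, and the interaction was 2.16 (SE 0.307, 95% interval 1.42 to 2.90, adjusted p = 0.911).

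Cht1 (LOC4338719), a chitinase, differed in both leaves. Its signal was 25.5, 21.8 and 38.0 in L6 and 86.8, 69.9 and 66.9 in L3 of OE plants, against 15.5, 8.64 and 11.5 in L6 and 112, 121 and 133 in L3 of WT plants. OE was above WT in L6 and below WT in L3, with no overlap in either leaf. The interaction was 1.27 (SE 0.217, limma adjusted p = 1). AOS (LOC4332121), allene oxide synthase of jasmonate synthesis, read 52.7, 47.6 and 65.4 in L6 and 115, 122 and 151 in L3 of OE plants, against 46.5, 44.5 and 48.0 in L6 and 263, 314 and 185 in L3 of WT plants. All L3 values of OE lay below those of WT, and the interaction was 1.06 (SE 0.217, adjusted p = 1). L6 of WT lay below the added 16 for Cht1, and its interaction was 1.90 with 1 added and 0.71 with 64 added in place of 16.

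**Figure D4:**
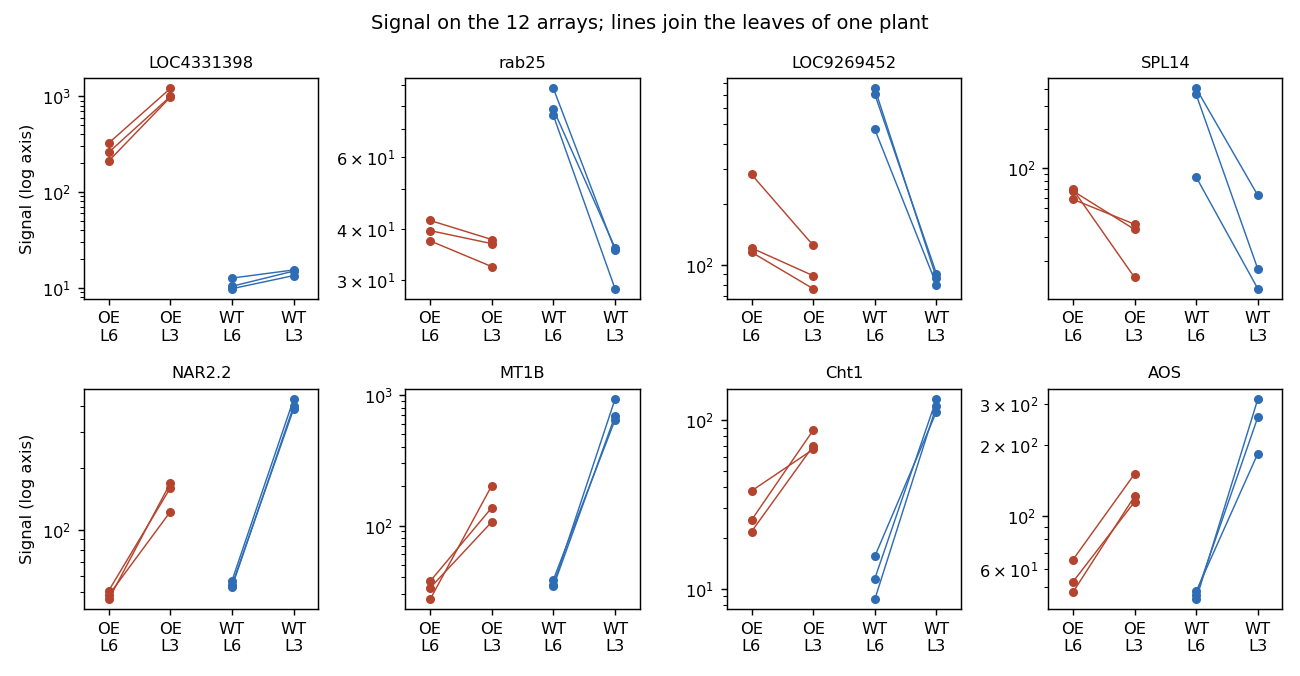
Signal on a log axis in each of the 12 arrays for 8 genes, with OE leaves left of WT leaves, L6 left of L3 within a genotype, and a line joining the leaves of a plant. LOC4331398 is far higher in OE than in WT in both leaves, rab25, LOC9269452 and SPL14 are highest in L6 of WT, and NAR2.2, MT1B, Cht1 and AOS are highest in L3 of WT.

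The remaining named genes chosen for a higher value in OE without overlap had interactions between 0.39 and 1.84. GH3.2, an auxin-conjugating enzyme and the auxin list's member of smallest p, had 0.37. BURP17, of the BURP-domain family of plant proteins, read 199, 35.7 and 163 in L6 and 4186, 3771 and 4002 in L3 of OE plants, against 16.9, 13.5 and 28.5 in L6 and 3390, 4166 and 4456 in L3 of WT plants. Its L3 values overlapped and its L6 values did not, and the interaction was 1.84 (SE 0.509). In L6, WT replicates 1 and 2 lay near the added 16, so the size of this interaction depends on that value. The urea transporter DUR3 had 0.74, the cytochrome P450 CYP76M7 of diterpenoid synthesis 0.66, the ABC transporter ABCG48 0.57, and BAT1 0.39. CYP76M7 read 12.5 to 15.1 in L6 of OE plants and 12.5 to 17.4 in L6 of WT plants, near the added 16, so its interaction rests on L3. ABCG48 was also near it in L6 of WT plants, at 15.7, 20.0 and 19.6. PHO1;2, of a family of phosphate exporters, had leaf differences of 0.68 in OE (limma adjusted p = 0.0141) and 0.01 in WT (adjusted p = 0.955) and an interaction of 0.67. Its other probe sets gave -0.0287 and -0.0675, so they disagree. BASS2 had 0.53 on the probe set chosen and 0.243 and 0.206 on the others. GCN5, a histone acetyltransferase, had 0.39 and, on the other probe set, 0.185.

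LOC4351887 had the largest positive interaction among the genes named, at 2.38 (SE 0.466). It read 363, 4759 and 831 in L6 and 21.7, 134 and 17.3 in L3 of OE plants, against 114, 141 and 162 in L6 and 31.4, 15.7 and 26.4 in L3 of WT plants. OE replicate 2 was the highest in both leaves, and the leaf differences were 3.33, 4.99 and 4.67 in OE plants and 1.45, 2.31 and 2.07 in WT plants. A second probe set of the gene gave 2.45. LOC4343600 read 46.6, 43.5 and 49.3 in L6 and 43.2, 62.8 and 50.6 in L3 of OE plants, against 33.5, 36.8 and 33.4 in L6 and 111, 141 and 91.9 in L3 of WT plants, an interaction of 1.24 that its other probe set (-0.0405) did not show. LOC4349705 had 0.63. A probe set without a gene had 2.08, with L6 at 372, 617 and 576 in OE plants and 81.5, 44.8 and 55.1 in WT plants.

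Among the named genes with a lower value in OE, S1FA2, of a small family of plant DNA-binding proteins, read 1159, 1123 and 1223 in L6 and 1895, 2012 and 2177 in L3 of OE plants, against 1278, 1352 and 1400 in L6 and 1457, 1543 and 1494 in L3 of WT plants. Its L6 values were lower and its L3 values higher in OE than in WT, without overlap. The leaf difference was -0.79 in OE (limma adjusted p = 0.00271) and -0.16 in WT (adjusted p = 0.15), and the interaction was -0.63 (SE 0.109). MADS16, a class B floral identity gene in rice, read 243, 267 and 277 in L6 and 181, 155 and 138 in L3 of OE plants, against 476, 443 and 544 in L6 and 197, 154 and 143 in L3 of WT plants. L6 of OE lay below L6 of WT while L3 overlapped, and the interaction was -0.80 (SE 0.222). GST1, a glutathione transferase, had -0.84, the Casparian strip membrane protein-like genes CASPL2C2 and CASPL3A1 had -0.77 and -0.68, and MS had -0.72. RR9, a response regulator of cytokinin signalling, had -0.58, the sugar transporter SWEET6a -0.42, DI1 -0.64 and the formin FH13 -0.31. None of these passed.

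Of the lists of related genes, 39 with at least 4 tested genes were described, and in all of them 0 genes passed. The secondary cell wall list, with 37 of 42 named genes tested, held 32 genes with a lower and 5 with a higher value in OE. Its median interaction was -0.282. The list was matched by name and also holds CESA1, CESA2, CESA3, CESA5, CESA6 and CESA8, so its counts and median are not of secondary wall genes only. None of the 37 had an unadjusted p under 0.05 (1.64% of all genes by their brightest probe set), and 1 was without overlap between OE and WT plants (5.27% of all genes). Between the leaves, 13 were higher and 5 lower in L6 of OE plants (16.6% and 24.1% of all genes by their brightest probe set), and 24 were higher and 7 lower in L6 of WT plants (22.8% and 26.2% of all genes). The member of smallest p was BC1L6, of the COBRA-like family, with an interaction of -0.52 (SE 0.225, limma adjusted p = 1). The median moved with the plants used, between -0.73 without WT replicate 1 and -0.0987 without WT replicate 3.

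CESA4, CESA7 and CESA9, the cellulose synthases of the secondary wall in rice, were singled out after their values were seen. CESA4 read 1850, 1450 and 1600 in L6 and 560, 593 and 66.9 in L3 of OE plants, against 2000, 1740 and 2020 in L6 and 1210, 49.8 and 53.6 in L3 of WT plants. CESA9 read 1230, 900 and 1060 in L6 and 345, 410 and 43.6 in L3 of OE plants, against 1170, 1030 and 1250 in L6 and 732, 30.2 and 29.2 in L3 of WT plants. Both were bright in every L6 and split in L3, where OE replicates 1 and 2 and WT replicate 1 were high. CESA7 had the same pattern, with L3 at 328, 389 and 93.2 in OE plants and 769, 84.9 and 83.8 in WT plants. These are the L3 leaves that scored nearer to young leaves, and they include both genotypes. The interactions of CESA4, CESA7 and CESA9 were -1.03, -0.51 and -0.97, each smaller than the range of leaf differences within either genotype.

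In the nitrogen list, with 14 of 18 named genes tested, 12 genes had a higher and 2 a lower value in OE, with a median of 0.144. Of the 14, 2 had a higher value in OE at an unadjusted p under 0.05 (0.683% of all genes), NAR2.2 and GLN1-2, and both were without overlap (2.55% of all genes). GLN1-2, a glutamine synthetase, read 134, 270 and 239 in L6 and 208, 359 and 365 in L3 of OE plants, against 178, 225 and 205 in L6 and 389, 415 and 385 in L3 of WT plants. Its leaf differences were -0.58, -0.39 and -0.58 in OE plants and -1.06, -0.84 and -0.86 in WT plants, and its interaction of 0.41 did not pass. The median of this list was -0.0216 without OE replicate 1 and 0.352 without WT replicate 1.

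The abscisic acid and drought list, with 25 of 30 named genes tested, had a median of -0.241, with 18 lower and 7 higher. Besides rab25, RAB16D had -0.44 and Dhn1 -0.42, both in a family of proteins made in drying tissue. Dhn1 read 769, 641 and 786 in L6 and 751, 682 and 830 in L3 of OE plants, against 1240, 992 and 756 in L6 and 728, 735 and 788 in L3 of WT plants, so WT replicate 3 did not share the higher L6 level of the other WT plants. The sign of this list's median turned without WT replicate 1 (0.102) and with weights for the arrays (0.0416). In the jasmonate list, 30 of 40 were tested, with a median of -0.147, 20 lower and 10 higher. Its AOS (LOC4332121) and OPR5 had interactions of 1.06 and 0.56, and JAZ7, of the family of jasmonate repressors, had -0.46. Other members went both ways. A second gene named AOS (LOC4334233) had -0.22, aoc -0.09, OPR7 0.07, LOX2 -0.18 and CM-LOX2 0.73. OPR5 read 21.7, 17.3 and 21.8 in L6 and 42.8, 63.5 and 78.8 in L3 of OE plants, against 25.1, 21.4 and 20.3 in L6 and at least 95.5 in each L3 of WT plants. For OPR5 as for AOS (LOC4332121), L3 of OE was below L3 of WT in every plant.

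Ribosomal protein genes differed little, with 24 of 24 tested, 19 higher and 5 lower, a median of 0.044 and a range from -0.0825 to 0.168. The 7 tested photosystem, light-harvesting and Rubisco genes lay between -0.0736 and 0.242, and 5 genes of chlorophyll breakdown and senescence between -0.0521 and 0.651. Cell cycle and DNA replication genes, 46 of 50 tested, had a median of -0.11 with 31 lower and 15 higher, and CDKB2-1, a mitotic kinase, had L3 levels of 203, 204 and 34.3 in OE plants and 376, 40.8 and 34 in WT plants. That split of L3 is the one seen for the CESA genes. Pathogenesis-related genes, 16 of 17 tested, were mostly lower in L6, with 12 called lower in OE (24.1% of all genes) and 13 in WT (26.2% of all genes) and 0 called higher, and had a median interaction of -0.0452. PBZ1, a defence marker of this list, read 503, 426 and 569 in L6 and 2070, 1780 and 2700 in L3 of OE plants, against 759, 415 and 523 in L6 and 836, 1800 and 1660 in L3 of WT plants, where WT replicate 1 had the lowest L3.

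**Figure D5:**
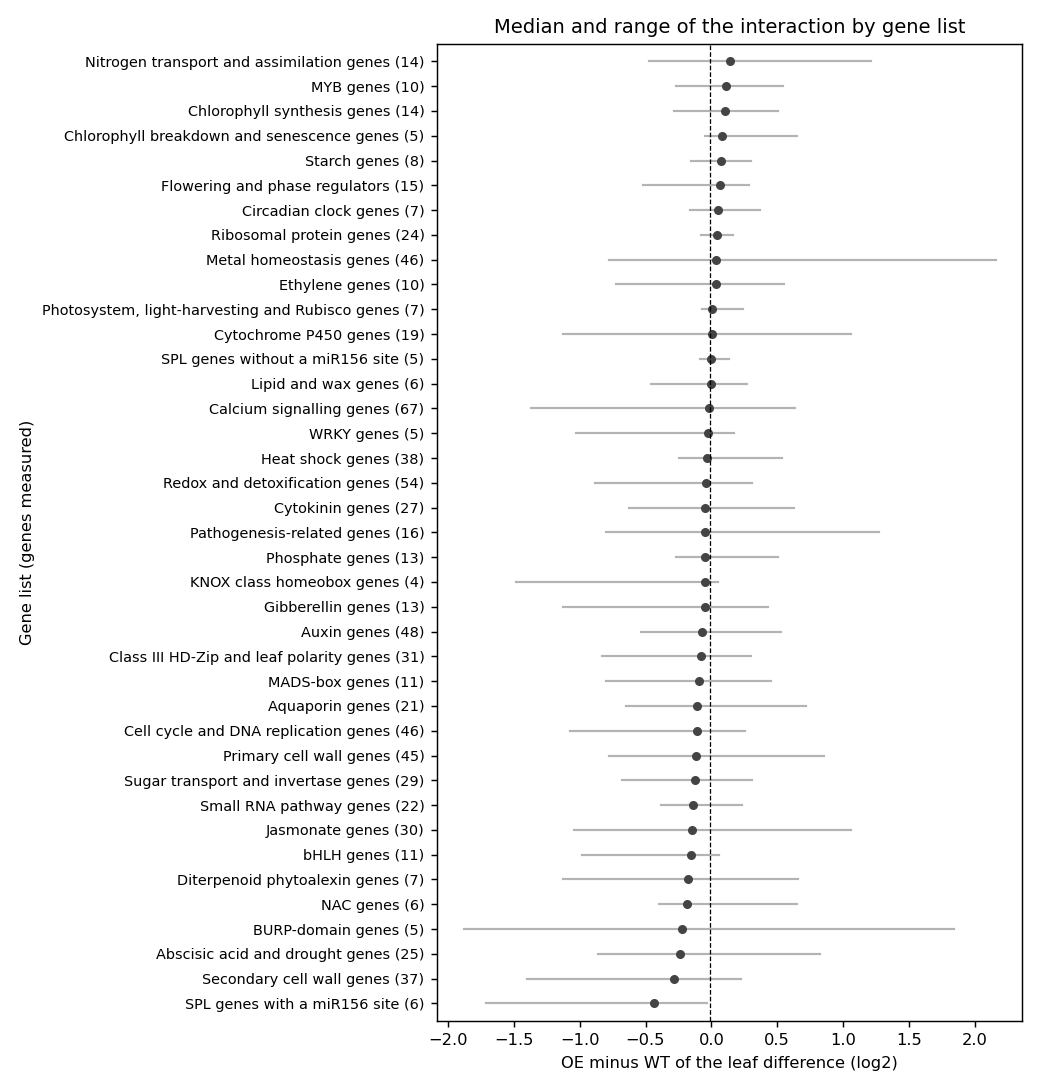
Median (points) and range from lowest to highest (lines) of the interaction, OE minus WT of the leaf difference on the log2 scale, for each described gene list with the number of genes tested in brackets. The medians lie between -0.432 for SPL genes with a miR156 site and 0.144 for nitrogen genes, and 0 genes passed in any list. Lists were matched by name and can hold other members of a family, such as CESA1 in the secondary cell wall list and HOX1 in the class III HD-Zip list.

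Other members of smallest p in their lists did not pass either. MADS18, of the flowering list, had leaf differences of 0.87 in OE (limma adjusted p = 0.0174) and 1.39 in WT (adjusted p = 0.00472) and an interaction of -0.52 (SE 0.252). Its L6 read 276, 369 and 312 in OE plants and 713, 563 and 710 in WT plants, and these did not overlap. The silicon transporter Lsi6, of the aquaporin family, had -0.62, and the clock gene CCA1 had 0.37. KO1 (LOC4341343), an ent-kaurene oxidase of gibberellin synthesis, had -1.13 (SE 0.476). Its leaf differences were 0.18, -0.54 and 0.26 in OE plants and 2.16, 0.47 and 0.66 in WT plants. The L3 signal of WT replicate 1 was 16.4, near the added 16. Another gene named KO1 (LOC4341347) had an interaction of -0.26. CHLH, a subunit of magnesium chelatase in chlorophyll synthesis, had 0.50, and its other probe set -0.193. Among genes of small RNA pathways, 22 of 25 were tested, with a median of -0.142 that shrank to -0.0111 without WT replicate 1, and AGO1 had leaf differences of 0.45, 0.47 and 0.82 in OE plants and 0.22, 1.10 and 0.89 in WT plants.

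Both kinds of departure were present among the probe sets that stood apart most. In 537 probe sets the leaf differences did not overlap and the unadjusted p was under 0.05. Of these, 213 (39.7%, against 51.3% of all tested) had the same sign in both genotypes and were smaller in OE, and 130 (24.2%, against 36.4%) had the same sign and were larger in OE. In the other 194 (36.1%, against 12.3%) the mean leaf differences had opposite signs. These probe sets were chosen by the interaction itself, so the shares are a description.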

How the data were processed

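Total RNA of 12 leaf samples was hybridised to the rice array, per the labels' protocols. The deposited table holds 1 linear intensity per probe set and array. The labels name no scanner, summarization or scaling method, and no detection calls were used. The unit was read from the deposited values. Array medians differed by at most 0.118 on the log2 scale, so no normalization was added.

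In R 4.3.3, log2(intensity + 16) was taken, which understates folds of dim genes. The 187 array controls and 22878 dim probe sets, below the 40th percentile of mean log2, did not enter. Limma 3.58.1 was fitted with the plant as a fixed block (4 residual degrees of freedom, 6.36 after moderation), eBayes with a trend, two-sided tests and Benjamini-Hochberg adjustment over 34316 probe sets. Array numbers limit the precision. The fit was also run on simulated data with known interactions. Those data had equal spread in both leaves and no plant effects, so they do not test the fit under the spread seen here. Python 3.11.15, pandas 2.3.3 and matplotlib 3.10.9 drew the figures.

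The pairing of leaves comes from the labels, which give both leaves of a number the same line or plant. Deviations of the paired leaves from their group means correlated at 0.10, 0.14 and 0.20 in OE and at -0.24, -0.36 and -0.051 in WT.

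Gene IDs of the platform annotation were looked up in NCBI's table for assembly ASM3414082v1, only to name genes. All 22436 probe sets with 1 gene matched, 95 had several genes and 34850 none. A gene whose table symbol is a LOC number took its first synonym as a name where it had one. Of 15517 genes tested, 2170 had a name.

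The comparison, genes and lists were chosen with earlier results of these data known. Named were, per direction, the 12 named genes of smallest p without overlap, 3 genes known by number and 2 probe sets without a gene, every SPL gene, and each list's member of smallest p. Lists were matched by symbol and synonym, with the brightest probe set per gene. Genes that shared only a synonym with a list were removed after matching.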

Additional observations from a re-analysis of the deposited data

Results flagged for a closer look

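The array carries 64 probe sets for reporter and marker genes, which are array controls and entered no comparison. In 2 of them every OE array lay above every WT array. Signal appeared there in data outside the main measurement and above the level in WT plants. The first averaged 2578 in OE and 45.92 in WT, with leaf differences of -0.106, -0.345 and -0.528 in OE plants. The second averaged 3541 in OE and 18.73 in WT, with leaf differences of -0.554, -0.344 and -0.541 in OE plants. The other reporter probe sets stayed at or below 93.24 in all arrays. Both WT means lay within that range, so no fold and no WT leaf difference is given. Which sequence of the transgene these probe sets read was not tested.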

How the results depend on the processing

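Over all 34316 probe sets, 0 were called under all alternatives and thresholds tried except the following. Without the plant as a replicate block the count was 3, all 3 lower in OE and all 3 among the named (LOC4331398 with both probe sets and a probe set without a gene). With the plant as a random block it was 1, the 1 being lower and named. The count at an unadjusted p under 0.05 was 596 and became 1399 with no filter, 306 with a 60th percentile filter, 1885 with array weights, 232 with 1 probe set per gene, 396 without OE replicate 1, 3346 without WT replicate 1 and 899 with leaf differences scaled to equal SD per plant, the last an alternative chosen after seeing the data. Fewer or more probe sets enter with another filter or 1 probe set per gene; for the rest the cause was not tested. Leaving out a plant moved the difference in SD between -0.296 and 0.00876. Among 72 named probe sets and 17 alternatives, the sign turned for 6, all SPL genes near 0. Quantile normalization gave 0.00067 for SPL2 and 0.00429 for SPL15, a pseudocount of 64 gave -0.043 for SPL4, and scaling gave -0.14 for SPL1, 0.11 for SPL8, 0.25 for SPL2 and 0.035 for SPL15. Leaving out a plant gave -0.16 to 0.046 for SPL6, -0.16 to 0.54 for SPL1, -0.030 to 0.11 for SPL4, -0.48 to 0.12 for SPL8, -0.41 to 0.27 for SPL2 and -0.075 to 0.044 for SPL15. Of list medians, drought became 0.0416 and nitrogen 0.358 with array weights, sugar -0.0861 with a pseudocount of 64, and phosphate -0.244 and sugar -0.0812 with scaling. Leaving out a plant gave -0.115 to -0.0111 for small RNA genes, -0.36 to 0.102 for drought and -0.00521 to 0.0943 for ethylene. It gave -0.16 to -0.0224 for the list of HD-Zip and leaf polarity genes and -0.0751 to 0.0576 for heat shock. For phosphate it gave -0.209 to 0.171, for sugar -0.181 to 0.0387 and for cytochrome P450 genes -0.0544 to 0.151. The cause was not tested. Over 39 lists and their alternatives, 485 of 505 recomputed medians moved by less than the spread between plants. That spread is wide where WT replicate 1 stood apart, as in the secondary cell wall list (0.398, 2.09 and 1.8 in WT plants). A median can therefore move far and still be counted. Probe sets near the added 16, such as LOC4331398 in WT, have no reliable leaf difference there.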
